A study of Mus with 16 samples.

Results

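Epiblast stem cells of the crosses MolfB6 and SpretB6 were compared transcript by transcript. Each cross joins a genome of the laboratory strain C57BL/6J to that of a wild-derived inbred strain in an F1 hybrid, so both crosses share the C57BL/6J genome and differ in the other one. The 8 libraries were chosen by their titles, 4 of MolfB6 (numbered 1, 2, 3 and 6) and 4 of SpretB6 (numbered 1, 3, 5 and 6), out of 16 libraries in the series. The other 8 libraries, of CastB6 and PwkB6, entered the model fit and are used for reference levels. The cells are labelled only as mouse epiblast stem cells. The labels used here give no passage, sex or treatment, do not say which strain was the mother, and do not say whether libraries of a cross came from separate lines or cultures, so each p-value below measures only how far these libraries lay apart, which may be technical.

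Epiblast stem cells are pluripotent cells in the primed state, the counterpart of the epiblast after implantation, and they can form derivatives of all germ layers. In an F1 hybrid both parental genomes share a nucleus and the same regulatory proteins, which is why such hybrids are used to study regulatory sequence by its allele. The tables used here give 1 value per transcript, without alleles. How reads of the wild-derived allele were matched is not stated in the labels used here, and any loss of such reads was not measured. As these strain names are commonly used, MOLF derives from Mus musculus molossinus, a subspecies of the house mouse, and SPRET from Mus spretus, a separate species. The libraries were made from ribodepleted total RNA, so polyadenylated and non-polyadenylated transcripts of many lengths could be sampled. The deposited tables give each transcript an Ensembl transcript ID, a length, a level in TPM (a level corrected for length and library total) and an estimated number of reads. They hold no gene names, and 0 of the 116747 IDs could be matched to the gene table used here. Marker genes of epiblast stem cells could therefore not be checked, and the results describe transcripts by level, direction and length, with 4 of them given by ID.

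MolfB6 libraries held 59062524 to 66567733 estimated reads and SpretB6 libraries 44203579 to 72364790. Reads were found for 62920 to 65929 transcripts per library in MolfB6 and 62644 to 66259 in SpretB6. Neither the total, the number of transcripts with reads nor the fragment length correction differed between the crosses beyond the spread of their libraries (two-sided exact permutation test, n = 4 each, p adjusted over these 3 values = 0.8571 for each). With so few libraries, a single one of these values could not pass 0.05 after adjustment. The fragment length correction was taken as length minus effective length, as a median over transcripts longer than 2000 bases. It was 150.6 ± 3.10 bases in MolfB6 and 152.0 ± 2.48 bases in SpretB6 (SD, n = 4 each). Across transcripts, the Spearman correlation of log2 CPM averaged 0.9026 over the 6 pairs within MolfB6 and 0.9113 over the 6 pairs within SpretB6. It averaged 0.866 over the 16 pairs between the crosses, and the highest of these, 0.8759, lay below the lowest within a cross, 0.8908. These correlations are descriptions over transcripts that share libraries. MolfB6 2 had the lowest mean correlation with its own cross, 0.8958 against 0.9026 to 0.9081 for the other MolfB6 libraries. In SpretB6 the lowest was SpretB6 6, which also held the fewest reads, at 0.9019 against 0.9118 to 0.9183 for the other SpretB6 libraries.

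Transcript levels differed between the crosses for 3137 of 56721 tested transcripts, or 5.53% (edgeR quasi-likelihood test, p adjusted by Benjamini-Hochberg, threshold 0.05). Of these, 1772 were higher in SpretB6, which is 3.12% of those tested, and 1365 were higher in MolfB6, which is 2.41%. SpretB6 thus held 56.49% of the calls. All 3137 had the same direction in mean TPM, as did 55825 of the 56721 tested transcripts. TPM and counts come from the same estimates, so this is no separate check. The TPM of all 4 SpretB6 libraries lay above that of all 4 MolfB6 libraries in 1715 of the 1772 higher in SpretB6, and the reverse held in 1268 of the 1365 higher in MolfB6. Over all tested transcripts, the SpretB6 libraries lay above the MolfB6 libraries in 8.99% and the MolfB6 libraries above the SpretB6 libraries in 6.73%. The calls were chosen for a difference between these libraries, so their higher share of separated transcripts follows from that choice. DESeq2 called 5606 transcripts, 53.78% of them higher in SpretB6.

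Most of the differences passed 2-fold. The median log2 fold change was 1.52 for transcripts higher in SpretB6 and -1.31 for those higher in MolfB6, against a median of -0.01 over all tested transcripts. Differences over 2-fold numbered 1200 in favour of SpretB6 and 907 in favour of MolfB6, which is 67.72% and 66.45% of each direction. Over all tested transcripts, called or not, 10590 (18.67%) passed 2-fold. Calls are chosen for a difference, so a higher share among them follows from that choice. The directions parted at larger folds. Over 16-fold, 509 called transcripts were higher in SpretB6 and 151 in MolfB6, against 1436 in either direction over all tested transcripts. In 166 of the SpretB6 rises and 66 of the MolfB6 rises the other cross had 0 reads in all 4 libraries, and for these counts such folds were set to a lower bound that takes 3 reads over the whole cross. With these bounds the medians were 1.52 and -1.31, the same to 2 decimals. The bounds touch only these 166 and 66 transcripts, so the medians could hardly move. Reads that fit several transcripts are divided by estimation, which gives fractional counts, and a transcript is called whole below when each of its 16 estimates was a whole number to within 0.001.

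**Figure D1:**
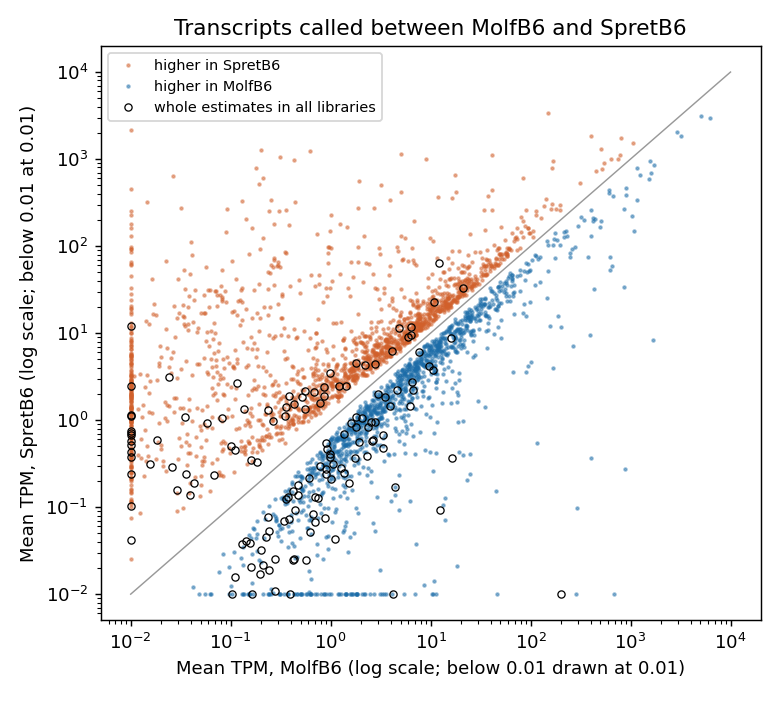
Mean TPM of each called transcript in MolfB6 (horizontal) and SpretB6 (vertical), n = 4 libraries each, both on log axes with values below 0.01 drawn at 0.01; open circles mark the 138 calls whose estimates were whole in all libraries. Of the 3137 called transcripts, 2107 differed by over 2-fold. At 10 TPM or more, points far above the diagonal outnumber those far below it (210 against 40 at over 16-fold).

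Large differences at a substantial level were mostly in short transcripts. With a mean of at least 10 TPM in the higher cross and a difference over 16-fold, 210 transcripts stood higher in SpretB6 and 40 higher in MolfB6. Their median lengths were 580 bases and 704.5 bases, against 1580 bases over the 10193 tested transcripts that reached 10 TPM in either cross. Of the 210, 166 were under 1000 bases, and of the 40, 29 were, against 3671 of the 10193. Only 1 of the 210 and 3 of the 40 had whole estimates in all 16 libraries, so nearly all of them share reads with other transcripts, and their levels depend on how the reads were divided. That share was low at this level in general, with 71 whole among the 10193.

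The called transcripts were about as long as those tested, but the directions differed in length. The median length was 1817 bases over all calls and 1838 bases over all tested transcripts. It was 1567.5 bases among those higher in SpretB6 and 2116 bases among those higher in MolfB6. Transcripts under 1000 bases made up 35.5% of the SpretB6 rises, 25.27% of the MolfB6 rises and 34.12% of all tested transcripts. By length class, with the upper limit of each class not included, SpretB6 held 218 of the 300 calls under 500 bases (72.67%), 411 of the 674 calls from 500 to 1000 bases (60.98%) and 417 of the 714 from 1000 to 2000 bases (58.4%). From 2000 to 4000 bases the directions were nearly even, with 474 of 930 higher in SpretB6 (50.97%), and at 4000 bases and over 252 of 519 were (48.55%). Transcripts are not replicates of a cross, so these shares are descriptions without a test.

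The share of transcripts called did not follow length in one direction. It was 6.99% under 500 bases, 4.47% from 500 to 1000, 6.62% from 1000 to 2000, 5.41% from 2000 to 4000 and 5.51% at 4000 bases and over. The size of the called differences fell with length. The median absolute log2 fold change, with the lower bounds in place, was 4.45 under 500 bases, 1.93, 1.58 and 1.14 in the next 3 classes, and 0.88 at 4000 bases and over. Under 500 bases the median was 5.21 among SpretB6 rises and -2.34 among MolfB6 rises, whereas at 4000 bases and over the medians were 0.76 and -0.98. The shorter classes also varied more between libraries and were read less deeply. The median SD of log2 CPM was 0.522 in MolfB6 and 0.465 in SpretB6 under 500 bases, and 0.289 and 0.279 at 4000 bases and over. The median of mean log2 CPM was -1.63 in the shortest class and 2.05 in the longest. The part of depth and spread in the sizes of the called folds was not tested.

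**Figure D2:**
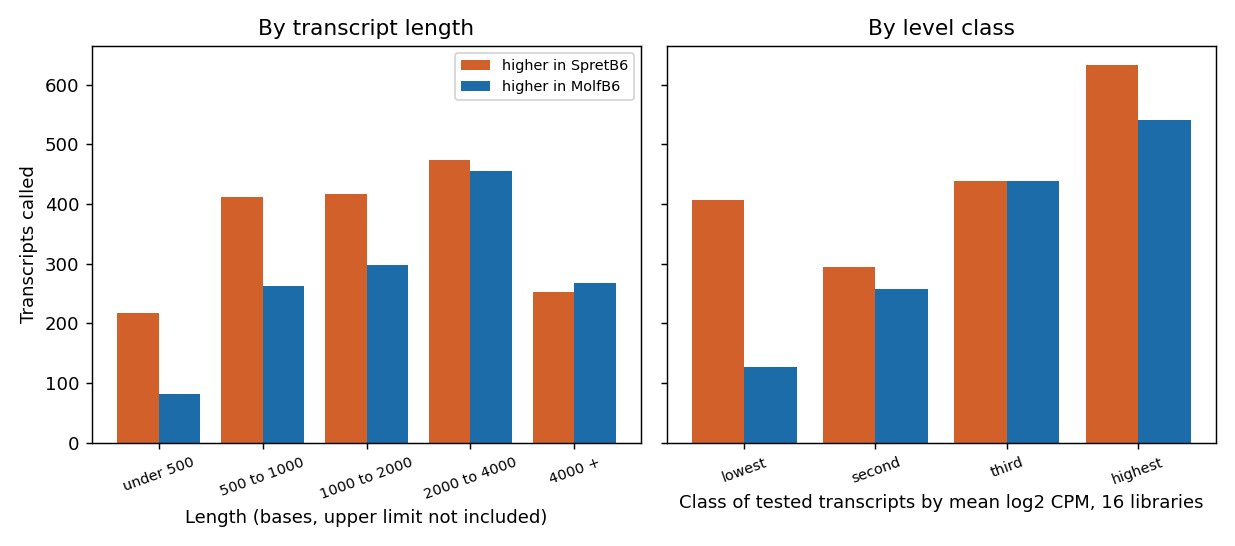
Number of transcripts called (vertical) higher in SpretB6 and higher in MolfB6, by length in bases (left) and by 4 equal classes of the tested transcripts ranked on mean log2 CPM over all 16 libraries (right). SpretB6 leads by 218 to 82 under 500 bases and by 406 to 127 in the lowest class by level, and the directions are near even from 2000 bases and in the third class.

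Level was split into 4 equal classes of tested transcripts by mean log2 CPM over the 16 libraries. The share called rose from 3.76% in the lowest class to 8.28% in the highest, and the median absolute log2 fold change of the calls, with the bounds, fell from 5.41 to 0.77. SpretB6 held 406 of 533 calls in the lowest class (76.17%), 295 of 553 in the second (53.35%), 438 of 877 in the third (49.94%) and 633 of 1174 in the highest (53.92%). A transcript with reads in SpretB6 alone has a low mean over 16 libraries, which places such rises in the lowest class. With the mean taken over the 8 libraries compared, a choice made after seeing the data, SpretB6 held 277 of 426 calls in the lowest class (65.02%) and 669 of 1185 in the highest (56.46%).

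Length and direction were also counted within the classes by the mean over the 8 libraries, again after seeing the data. In the lowest of these classes SpretB6 held 71 of 88 calls under 500 bases (80.68%), 91 of 133 from 500 to 1000 bases (68.42%) and 37 of 76 from 2000 to 4000 bases (48.68%). In the third class the same lengths gave 56 of 75 (74.67%), 122 of 195 (62.56%) and 128 of 287 (44.6%). In the highest class they gave 25 of 45 (55.56%), 87 of 167 (52.1%) and 254 of 428 (59.35%), so there the shortest transcripts did not hold the largest SpretB6 share. By the mean over 16 libraries, which lowers the class of transcripts read in SpretB6 alone, the shares in the highest class were 43.18% under 500 bases (19 of 44) and 48.47% from 500 to 1000 bases (79 of 163), so the direction among short transcripts at that level turned with how level was taken. No test was run between the classes. Among the most abundant transcripts by mean TPM of both crosses, 9 of the top 100 were called, 3 of them higher in SpretB6. Of the top 1000, 117 were called (11.7%), 61 of them higher in SpretB6, and of the top 5000, 502 were called (10.04%), 323 of them higher in SpretB6. Over all tested transcripts 5.53% were called, and 8.28% in the highest class by the mean over 16 libraries.

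Summed over whole libraries, no length class passed a test between the crosses. Transcripts under 1000 bases took 21.17% ± 1.36 of the estimated reads in MolfB6 and 20.44% ± 0.597 in SpretB6 (SD, n = 4 each; two-sided exact permutation p = 0.4). The MolfB6 libraries stood at 20.26%, 23.05%, 20.09% and 21.28%, and the SpretB6 libraries at 19.79%, 20.6%, 20.18% and 21.18%. The groups overlapped, and MolfB6 2 held the highest value. The class nearest to a difference was 2000 to 4000 bases, with 31.51% ± 0.518 of the reads in MolfB6 and 32.29% ± 0.277 in SpretB6 (SD, n = 4 each). It did not pass the two-sided exact permutation test (p = 0.0571, adjusted over the 5 classes p = 0.2857). The smallest two-sided p that 4 libraries against 4 allow is 0.0286. After adjustment over the 5 classes, a single class could therefore not pass 0.05 even with the crosses fully apart. At 4000 bases and over, MolfB6 2 stood at 21.91%, below the 23.36% to 25.1% of the other 7 libraries.

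**Figure D3:**
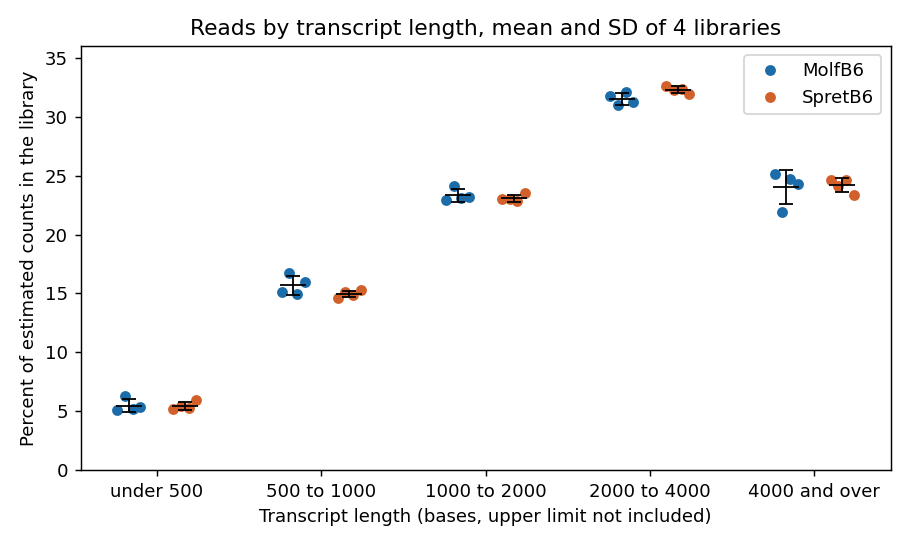
Percent of each library's estimated reads (vertical) in 5 classes of transcript length in bases (horizontal); points are the 4 libraries of a cross, and black marks give the mean and SD. The crosses overlap in every class, and the lowest point at 4000 bases and over is MolfB6 2 at 21.91%.

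The called transcripts made up a small but uneven part of each transcriptome. The 1772 transcripts higher in SpretB6 took 7.001% to 7.425% of the TPM in the SpretB6 libraries and 1.832% to 2.116% in the MolfB6 libraries. The 1365 higher in MolfB6 took 6.358% to 6.544% in the MolfB6 libraries and 2.756% to 2.854% in the SpretB6 libraries. These sums use the values that made the calls and describe only how much of the RNA was involved. The 10 most abundant transcripts of each set held 23.12% of the SpretB6 sum and 41.64% of the MolfB6 sum, so the MolfB6 sum rested on fewer transcripts.

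Transcripts with reads in 1 cross and hardly any in the other were more often those of SpretB6. A transcript was taken as present in a cross when each of its 4 libraries held 10 reads or more, and as absent when none held more than 3. By these limits 322 transcripts were present in SpretB6 and absent in MolfB6, and 106 were present in MolfB6 and absent in SpretB6. Of the 322, 319 were tested and 275 called, and of the 106, 105 were tested and 79 called. Over all tested transcripts 5.53% were called, and the higher share here follows from the limits, which demand a difference. The SpretB6 set had a median length of 757 bases and 63.98% of it was under 1000 bases. The MolfB6 set had a median of 1716.5 bases and 32.08% under 1000 bases, close to the 34.12% of all tested transcripts. Depth was similar, with medians of 62.6 and 58.5 reads per library in the cross where they were present. At least 10 TPM was reached by 73 of the 322 and by 11 of the 106. The estimates were whole in all 16 libraries for 16 of the 322 and 9 of the 106, and these had median lengths of 1384 and 1361 bases. Over all tested transcripts 1335 of 56721 were whole, and whole estimates arise more easily where few libraries hold reads. With any 1 of the 8 libraries left out, the MolfB6 count lay between 134 and 168 and the SpretB6 count between 348 and 382. The limits must hold in every library, so leaving 1 out can only keep or raise these counts.

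The levels in CastB6 and PwkB6 were set beside those of MolfB6 and SpretB6. This places the other crosses nearer to MolfB6 or to SpretB6 but does not show which of the compared crosses changed. Of the 322 transcripts present in SpretB6 and absent in MolfB6, 160 were also absent in both CastB6 and PwkB6, and 13 were present in both. Of the 106 present in MolfB6 and absent in SpretB6, 4 were absent in both other crosses and 14 were present in both, with most of the rest between the limits in at least 1 of them. Among all calls, the mean log2 CPM of each other cross was placed on the MolfB6 or the SpretB6 side of the midpoint between the 2 means. This was done for calls only, so these placements have no share over all tested transcripts to be read against. For transcripts higher in SpretB6, both CastB6 and PwkB6 lay on the MolfB6 side in 1069 of 1772 (60.33%) and on the SpretB6 side in 231 (13.04%). For transcripts higher in MolfB6, both lay on the MolfB6 side in 662 of 1365 (48.5%) and on the SpretB6 side in 232. In 1513 of the 3137 calls (48.23%) the 4 SpretB6 libraries lay outside the TPM range of the 12 others, against 4.37% of all tested transcripts. The 4 MolfB6 libraries did so in 350 calls (11.16%), against 1.12% of all tested. The calls were already chosen for a difference between these crosses, so their shares exceed those over all tested transcripts by construction.

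Length varied with this placement. The 1069 transcripts higher in SpretB6 with both other crosses on the MolfB6 side had a median length of 1285 bases and a median absolute log2 fold change of 2.09 with the bounds. The other 3 placements of SpretB6 rises had median lengths of 1941, 2093 and 2639 bases and medians of 0.98, 1.09 and 1.21. Among MolfB6 rises the median length was 2017 bases with both other crosses on the MolfB6 side and 2384.5 bases with both on the SpretB6 side.

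**Figure D4:**
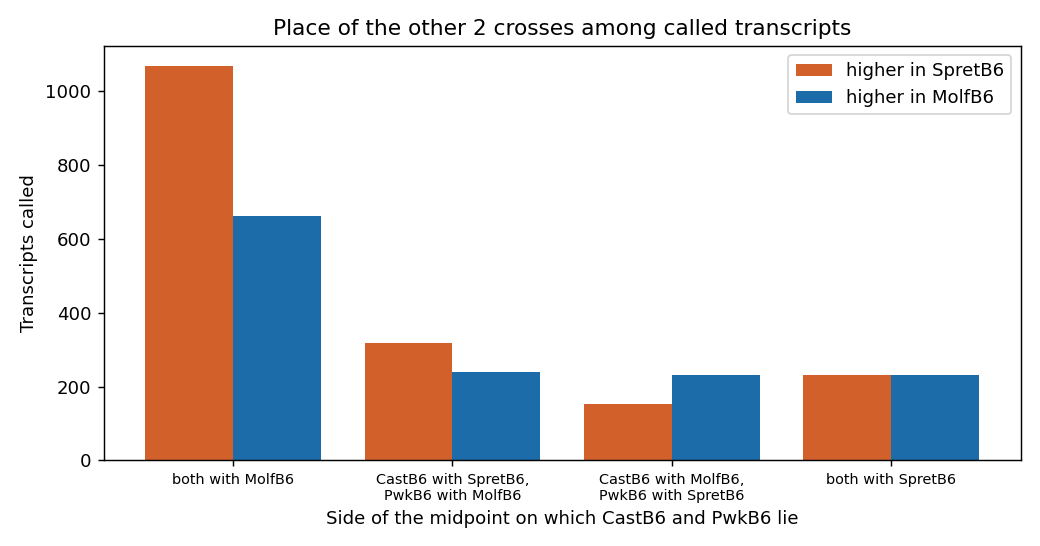
Number of called transcripts (vertical) by the side of the midpoint between the mean log2 CPM of MolfB6 and SpretB6 on which CastB6 and PwkB6 lay (horizontal), for each direction. The tallest pair of bars, 1069 and 662, is the one in which both other crosses lay on the MolfB6 side.

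Most of the tested transcripts share reads with others, and the direction of the calls differed between these and the rest. Whole estimates in all 16 libraries were found for 1335 of the 56721 tested transcripts. Of these, 138 were called (10.3%), 59 higher in SpretB6 and 79 higher in MolfB6, so SpretB6 held 42.75%. Of the other 55386, 2999 were called (5.41%), and SpretB6 held 1713 of them, or 57.12%. With p-values adjusted over the 1335 alone, 177 were called and SpretB6 held 41.24%. In the lowest class by the mean over 16 libraries, SpretB6 held 25 of 49 whole calls (51.02%) against 381 of 484 others (78.72%). In the second class it held 14 of 34 (41.18%) against 281 of 519 (54.14%), and in the third 12 of 39 (30.77%) against 426 of 838 (50.84%). In the highest class the shares were close, at 8 of 16 against 53.97% of the 1158 others. Over all 1335, called or not, the median log2 fold change was -0.09.

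The order of lengths was the same in both sets of calls. Among whole estimates, SpretB6 rises had a median length of 1965 bases and MolfB6 rises 2207 bases, and among the others the medians were 1550 and 2114 bases. All 1335 whole transcripts had a median of 2299 bases. With p-values adjusted over these alone the order turned, with medians of 2628 bases for the 73 SpretB6 rises and 2307.5 bases for the 104 MolfB6 rises. The SpretB6 share was also lower in the longer classes, with 6 of 11 whole calls under 500 bases (54.55%), 18 of 41 from 1000 to 2000 bases (43.9%) and 8 of 23 at 4000 bases and over (34.78%). Whole estimates arise more easily where few libraries hold reads, so this set is not a fair sample of the tested transcripts. The part of read sharing in the direction was not tested, nor was the difference between the 2 shares.

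The most different transcripts were present in 1 cross and without reads in the other. In each direction 1 was taken from all calls and 1 from the calls with whole estimates, by the size of the change. Their adjusted p-values follow from that choice and are no separate test. Those with reads almost only in 1 cross also passed the count filter only through that cross. ENSMUST00000183090.2, of 399 bases, stood at 2582.5, 2772.3, 1564.7 and 1819 TPM in SpretB6 1, 3, 5 and 6. It had 0 reads in all 4 MolfB6 libraries and in all 8 CastB6 and PwkB6 libraries. SpretB6 held 17048 to 41869 reads per library, at least 38300-fold higher in CPM than MolfB6 (edgeR quasi-likelihood test, adjusted p = 4.57e-05). Its estimates were fractional, so it shares reads with other transcripts, and the bound does not cover how those reads were divided.

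ENSMUST00000121086.2, of 1218 bases, had whole estimates. It stood at 2.425, 2.37, 2.53 and 2.536 TPM in SpretB6 1, 3, 5 and 6, with 103 to 153 reads, and had 0 reads in the 4 MolfB6 libraries. The 4 SpretB6 libraries lay close together, at 2.47 ± 0.0814 TPM (SD, n = 4), at least 186-fold above MolfB6 in CPM (edgeR adjusted p = 0.000362). It was also nearly without reads elsewhere, with 0 in CastB6 and 1 read each in PwkB6 1 and PwkB6 6.

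ENSMUST00000118499.2, of 750 bases, stood at 595.8, 727.5, 720.6 and 704.1 TPM in MolfB6 1, 2, 3 and 6 and had 0 reads in all 4 SpretB6 libraries. It was at least 27800-fold lower in SpretB6 in CPM (edgeR adjusted p = 1.65e-08). Here the other crosses split, with 464 to 877.8 TPM in PwkB6 and 0 reads in the 4 CastB6 libraries. Its estimates were fractional, so the same limit on shared reads holds.

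ENSMUST00000139762.2, of 917 bases and with whole estimates, stood at 5.604, 2.483, 3.606 and 5.067 TPM in MolfB6 1, 2, 3 and 6 and had 0 reads in all 4 SpretB6 libraries. The MolfB6 libraries varied more than 2-fold among themselves, at 4.19 ± 1.42 TPM (SD, n = 4). It was at least 215-fold lower in SpretB6 in CPM (edgeR adjusted p = 0.00125). PwkB6 had 0 reads in 4 libraries, and CastB6 had 2 reads in CastB6 6 and 0 in the other 3, so among the 4 crosses this transcript was close to MolfB6 alone.

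**Figure D5:**
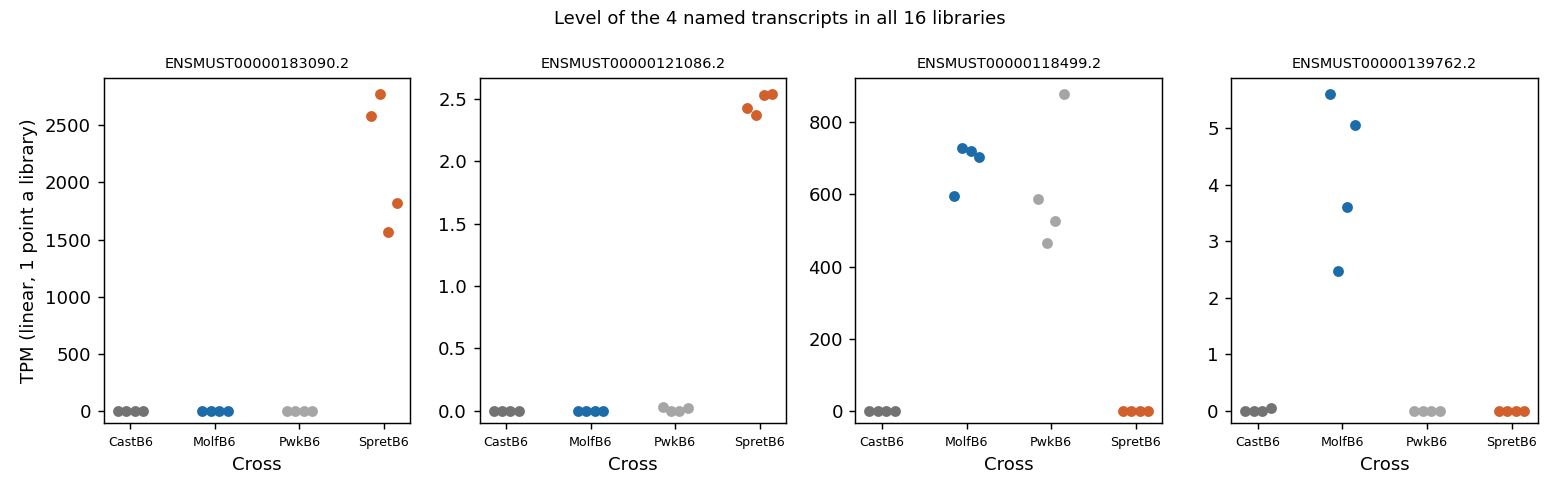
TPM of the 4 transcripts given by ID in each library (1 point a library, linear axis that differs between panels) for the 4 crosses. In every panel all 4 libraries of the lower of MolfB6 and SpretB6 sit at 0, and only for ENSMUST00000118499.2 does another cross, PwkB6 at 464 to 877.8 TPM, reach a level like that of the higher one.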

How the data were processed

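Per the submitters' processing notes, the authors used Salmon, DESeq2 and the genome build mm10. Transcript set, versions and settings: not given in the sources used here. Per the file headers, each deposited table holds length, effective length, TPM and estimated counts (NumReads). Estimated counts were rounded. The test was edgeR 4.0.16 (R 4.3.3): filterByExpr (minimum count 10, minimum total 15), TMM scaling, 1 quasi-likelihood model of the 16 libraries, the contrast SpretB6 minus MolfB6, and Benjamini-Hochberg adjustment over 56721 transcripts with a threshold of 0.05. Level classes used log2 CPM with a prior count of 2. Alternatives used DESeq2 1.42.0, limma 3.58.1, other scalings and filters, and left-out libraries. Simulated counts for SpretB6 against MolfB6 (54611 transcripts, 28 calls, 0 false) held 67 changes of 1.5-fold, 67 of 2-fold and 66 of 4-fold. Of these, 0%, 1.5% and 40.9% were recovered, so small changes can be missed. With 28 calls against 3137 in the data, the adjusted threshold was stricter in the simulation. The shares are therefore not recovery rates for the data.

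The transcripts given by ID were, in each direction, the call with the largest absolute log2 fold change at 10 TPM or more in the higher cross with no overlap between the crosses, and the same among whole estimates at 1 TPM or more. The comparison and these rules were chosen with earlier results of these data known. The planned gene lists, markers and gene sums needed gene names and were not run, and no sequences are shown because no table used here pairs the IDs with sequences. Libraries of a cross differed by more than counting noise, with the lowest chi-square per transcript at 17.8, so none was counted as a duplicate. Intervals and lower bounds cover counting error only.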

Additional observations from a re-analysis of the deposited data

How the results depend on the processing

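The count of called transcripts, 3137, was 5606 under DESeq2, 1717 with the title number as a replicate block and 177 among whole estimates alone. It was 2169 to 2614 with 1 of the 8 libraries left out and within 1.5 times 3137 in every other setting run. Same-numbered MolfB6 and SpretB6 libraries did not deviate together (correlations of 0.015, -0.020 and -0.064), and 0 of the 3 MolfB6 libraries correlated best with their own number, so the numbers were not taken to pair libraries. The percent of calls higher in SpretB6, 56.49%, was 53.78% under DESeq2, 59.65% under limma voom, 58.7% with no filter, 51.49% with at least 5 CPM in 4 libraries, 58.34% with only the 8 libraries, 60.72% and 59.27% for log2 TPM with pseudocounts of 1 and 0.1, 60.1% with the replicate block, 54.53% without PwkB6 6 and 55.15% to 59.6% without 1 of the 8 libraries. It turned only among whole estimates, at 41.24%, a set with fewer transcripts; the cause was not tested. The alternatives without single CastB6 and PwkB6 libraries, and direction and length among whole estimates, were chosen after seeing the data.

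The median length of SpretB6 rises, 1567.5 bases, was 1780 under DESeq2, 1426 with no filter, 2050 with the 5 CPM filter, 1753.5 with only the 8 libraries, 1321 and 1336.5 for log2 TPM, 1668 without PwkB6 6, and 1354.5 to 1547.5 without 1 of the 8 libraries. That of MolfB6 rises, 2116 bases, was 2414 with the 5 CPM filter, 1656 and 1670.5 for log2 TPM, 2210 without PwkB6 6, and 1955 to 2160.5 without 1 library. SpretB6 rises were the shorter in each of these settings except among whole estimates adjusted alone, where the medians were 2628 bases in SpretB6 and 2307.5 in MolfB6. The SpretB6 minus MolfB6 difference in the percent of reads under 1000 bases, -0.73, was 0.0297 without the 100 most abundant transcripts (two-sided exact permutation p = 0.9714, n = 4 each) and -1.09 to -0.103 without 1 library. Of the transcripts present in 1 cross, 141 in SpretB6 and 42 in MolfB6 had at least 50 reads. In the other cross, 176 and 69 had 0 reads. Without 1 library the counts were 348 to 382 and 134 to 168, and leaving 1 out can only keep or raise them. Of 66 values of the transcripts given by ID, 65 kept direction and threshold. ENSMUST00000139762.2 missed the threshold with the replicate block (edgeR adjusted p = 0.0549). These transcripts were chosen for the largest changes and had 0 reads in the lower cross, so their direction could hardly turn. The 5 CPM filter removed both of those with whole estimates. Sums per gene were not run.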
